A study of Mus musculus with 6 samples.

Results

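The fibroblast growth factor (FGF) family was followed through 10 named genes of 24421 in the counts table, picked with earlier results of these data known. Tested relatives such as *Fgf10* and *Fgfr4* are not among them and are given beside them. They are the secreted ligands *Fgf1*, *Fgf2*, *Fgf7* and *Fgf18*, the intracellular FGF homologous factors *Fgf11* and *Fgf13*, the receptor tyrosine kinases *Fgfr1*, *Fgfr2* and *Fgfr3*, and the receptor-like *Fgfrl1*. RNA was sequenced from primary endothelial cell cultures of the stria vascularis, the capillary-rich tissue of the cochlear lateral wall, to compare transcripts between knockout and wildtype mice. There were 3 knockout and 3 wildtype cultures, each 1 library, from untreated cells of mice on postnatal days 10 to 12. Knockout mice carried a targeted disruption of 1 gene, on a background that the labels give as C57BL/6N and the study's methods as a C57BL/6J backcross, and wildtype mice carried it intact. All 6 cultures grew in endothelial basal medium with 10% fetal bovine serum and 1% endothelial cell growth factor, so each met added growth factor. Cells of several mice were pooled per culture, taken from stria together with the adjoining spiral ligament, and sorted by flow cytometry after a first passage.

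FGF ligands that act between cells bind heparan sulfate and a receptor tyrosine kinase together, and the activated receptor signals through the adaptor FRS2 and the ERK kinases. FGF1 and FGF2 lack a classical secretion signal and are mitogens for endothelial cells, FGF7 is a mesenchymal ligand that acts on the epithelial splice form of FGFR2, and FGF18 acts mainly in skeletal and mesenchymal development. The homologous factors stay inside the cell, do not act through the receptors in the usual way, and bind voltage-gated sodium channels. FGFRL1 binds ligands but lacks the kinase domain. FGF signalling also shapes the developing inner ear.

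The 250 bases before a RefSeq start site are shown for the 3 members whose libraries did not overlap between the genotypes (GRCm38.p6, all 3 protein-coding genes, minus strand for *Fgf11* and *Fgf13* and plus strand for *Fgf7*). Capitals mark CpG dinucleotides, and none of the bases shown belongs to an exon of the same gene in GENCODE M21. *Fgf13* has 4 such start sites in the table, of which the one nearest its 3′ end is given.
Fgf11, chr11:69802281-69802530: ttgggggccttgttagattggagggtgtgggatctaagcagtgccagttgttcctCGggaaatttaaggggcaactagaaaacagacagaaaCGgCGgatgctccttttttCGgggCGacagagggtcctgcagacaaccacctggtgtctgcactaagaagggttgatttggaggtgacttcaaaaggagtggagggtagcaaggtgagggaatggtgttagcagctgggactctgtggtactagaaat
Fgf13, chrX:59134437-59134686: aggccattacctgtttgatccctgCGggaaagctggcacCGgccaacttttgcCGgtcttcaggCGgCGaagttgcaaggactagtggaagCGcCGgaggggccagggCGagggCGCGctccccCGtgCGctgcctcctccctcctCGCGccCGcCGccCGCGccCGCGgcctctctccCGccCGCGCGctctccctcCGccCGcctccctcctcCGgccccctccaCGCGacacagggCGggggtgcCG
Fgf7, chr2:126034408-126034657: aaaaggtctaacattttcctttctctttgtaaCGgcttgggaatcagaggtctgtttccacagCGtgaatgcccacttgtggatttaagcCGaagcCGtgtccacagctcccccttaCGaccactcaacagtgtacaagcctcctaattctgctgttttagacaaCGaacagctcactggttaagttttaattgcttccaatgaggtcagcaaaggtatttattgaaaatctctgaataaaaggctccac
The *Fgf11* start lies beyond the gene's 5′ end in GENCODE. Its window held 5 CpG dinucleotides and 51.2% G and C, and the *Fgf7* window held 6 and 43.6%. The median over all 32851 windows of the same length was 6 CpG and 52.4%. The *Fgf13* window held 31 CpG dinucleotides and 74.4% G and C. The GC box GGGCGG, searched on both strands, occurred 4 times in the *Fgf13* window and not in the windows of *Fgf11* or *Fgf7*, and 32.7% of all windows held it. Other motifs searched on both strands had no match in these 3 windows, namely the TATA box TATAAA (held by 12.4% of all windows), the E-box CACGTG (6.0%), the AP-1 site TGANTCA (6.7%) and the ETS core CCGGAA (12.0%). Windows before the other *Fgf13* starts differed among themselves. In order from the 3′ end they held 6, 33 and 2 CpG dinucleotides, with 40.4%, 74.8% and 45.6% G and C. They held 0, 3 and 0 GC boxes, and the 40.4% window held 1 AP-1 site. The gene counts pool all start sites and splice forms of a gene, so they do not show which of these starts was used.

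The libraries held from 25587097 to 29126232 reads assigned to genes. Normalized counts are reads brought to the mean library size with TMM factors. Wildtype replicate 2 lay far from the rest on principal component 1, at 106 against -28.5 to -6.52 in the others. Knockout replicates 1 and 2 lay closer together than any other pair, with a mean squared standardized difference of counts of 4.91 against at least 90.1, although still above sampling noise. Nothing says whether the cultures came from separate litters. The p-values set a genotype difference against the spread between these libraries, which may not be independent. Of 15 listed endothelial markers, 7 averaged 100 normalized counts or more, while *Cldn5* and *Robo4* had 0 reads, *Tie1* at most 2 and *Pecam1* at most 8 in any library. All 10 fibroblast markers and 5 of 10 mural markers reached that level as well. Summed fibroblast markers were 10179 to 10792 CPM (TMM-scaled reads, as a rate relative to library size) in knockout and 9694 to 14492 in wildtype libraries, summed mural markers 791 to 853 and 587 to 1085, and summed endothelial markers 612 to 941 and 579.5 to 858. Such sums are carried by a few abundant genes, and single markers differed from them (those with values here were named after their values were seen). *Cdh5*, which encodes VE-cadherin, was lower in the knockout (179 to 232 normalized counts against 2509 to 5194, edgeR adjusted p = 0.0133), the 1 listed marker past the threshold. *Flt1*, a VEGF receptor, had 378 to 578 against 919.9 to 3172 (edgeR adjusted p = 0.242). Other endothelial markers went the other way. Of 9 tested, 5 had a log2 fold change (knockout over wildtype) below 0 and 4 above. *Eng* was at 0.76, *Emcn* at 0.68 and *Tek* at 0.67 (edgeR adjusted p = 0.658, 0.853 and 0.723), with overlapping libraries. Without wildtype replicate 2, *Eng* was at 0.33, *Emcn* at 0.11 and *Tek* at 1.68, while *Cdh5* stayed at -3.83. *Tek* was then past the threshold as well (edgeR adjusted p = 0.0342). Every knockout library lay above every wildtype library for 5 of 10 mural and 3 of 10 fibroblast markers, where 10.4% of all genes did so. Macrophage markers summed to 22.4 to 45.4 and 4.15 to 55.6 CPM, and melanocyte markers to 110.1 to 124 and 70.1 to 212. In such bulk samples, fewer cells of a type and less RNA per cell cannot be told apart.

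All 10 members passed the filter on low counts and were compared by a two-sided quasi-likelihood test in edgeR (Benjamini-Hochberg adjustment over 13479 genes), with fold changes for knockout over wildtype. The adjusted p was under 0.05 for 0 of 10 members, against 0.0668% of all genes tested. *Fgf11* and *Fgf13* had an unadjusted p under 0.05 in the lower direction (2 of 10, against 5.71% of all genes) and 0 members in the higher direction (against 6.14%). Every knockout library lay below every wildtype library for the same 2 members, where 9.54% of all genes did so, and above for 1 member, *Fgf7*, where 10.4% did so. With 3 libraries against 3, an exact two-sided permutation test of 1 gene cannot go below 0.1. The median log2 fold change was -0.17 over the 10 members and -0.02 over all genes tested. These medians were 0.21 and 0.00 without wildtype replicate 2, so the direction over the members rested on that library. Without wildtype replicate 2, 1 of 10 members (*Fgf11*) had an adjusted p under 0.05, against 2.88% of all genes tested then. DESeq2's Wald test gave 1 of 10 (*Fgf11*), against 4.65%.

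**Figure D1:**
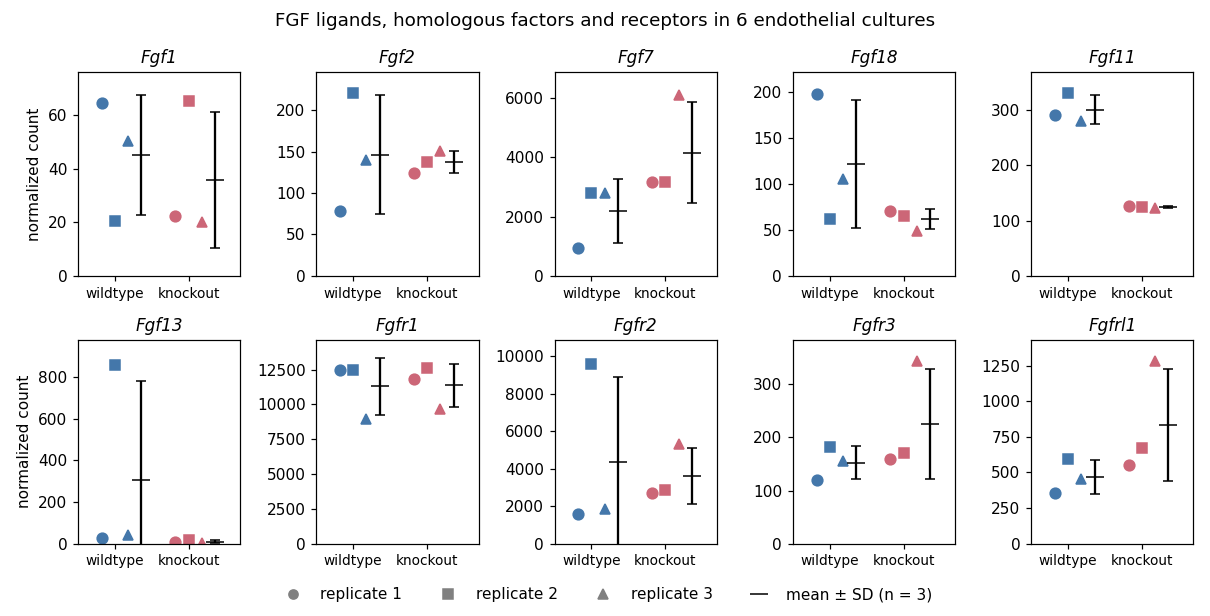
Normalized counts (TMM-scaled, linear axes from 0) of the 10 FGF genes in each library, with marker shapes for replicates 1 to 3 and black bars for the mean ± SD of 3 libraries, cut off at 0 for *Fgf13* and *Fgfr2*. The 3 knockout libraries of *Fgf11* sit between 122 and 126, below 280.2 to 331 in wildtype, while *Fgf13* and *Fgfr2* are highest in wildtype replicate 2 and *Fgf7*, *Fgfr3* and *Fgfrl1* in knockout replicate 3.

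*Fgf11*, a homologous factor (ENSMUSG00000042826.13, chromosome 11, 69796068 to 69801857, GRCm38), differed most evenly between the genotypes. In replicates 1, 2 and 3 the knockout had 126, 124 and 122 normalized counts and the wildtype 291, 331 and 280.2. The knockout libraries were nearly alike and all lay below the lowest wildtype library, and wildtype replicate 2 did not stand apart. Before scaling, the knockout libraries held 119, 134 and 129 reads. The scaled values were closer together than counting noise alone would usually leave them at such counts, which was not tested. Knockout averaged 124 ± 2.14 (SD, n = 3) against 301 ± 26.6 (SD, n = 3), with wildtype 2.42-fold above knockout. On the log2 scale the change was -1.27 (standard error 0.18, 95% interval -1.71 to -0.84, edgeR adjusted p = 0.0800). It ranked 46 of 13479 genes by p and was not past the threshold. Over 14 alternative settings the log2 fold change stayed between -1.33 and -1.21, while the adjusted p ran from 1.09e-07 (DESeq2) to 0.471, and it was 0.0346 without wildtype replicate 2.

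*Fgf13* (ENSMUSG00000031137.17, chromosome X, 59062145 to 59568071) is the other homologous factor with enough reads, and it regulates sodium channels and microtubules in neurons. Its normalized counts were 8.49, 17.7 and 4.73 in knockout and 25.4, 856 and 39.6 in wildtype replicates 1 to 3. The wildtype mean was 307 ± 475 (SD, n = 3) and the knockout mean 10.3 ± 6.65 (SD, n = 3). A single library, wildtype replicate 2, held most of the reads, 26.3 times the mean of the other wildtype libraries, and even the other wildtype libraries lay above the knockout libraries. Its log2 fold change of -4.88 (SE 1.57, edgeR adjusted p = 0.301, unadjusted p = 0.0192) did not pass the threshold. Without wildtype replicate 2 it was -1.65 (standard error 0.60, adjusted p = 0.212), and DESeq2 gave no p for the gene.

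The remaining homologous factors, *Fgf12* and *Fgf14*, had at most 9 and 12 reads in any library and were below the filter. Genes of voltage-gated sodium channels, the partners of these factors, were also scarce. Of 8 in the table, 3 were tested, with 0 at an unadjusted p under 0.05, and the most abundant were *Scn1a* (7.49 to 50.5 normalized counts over the 6 libraries) and *Scn8a* (4.89 to 20.8). Their summed level was 2.16 to 2.33 CPM in knockout and 1.28 to 3.25 in wildtype libraries.

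**Figure D2:**
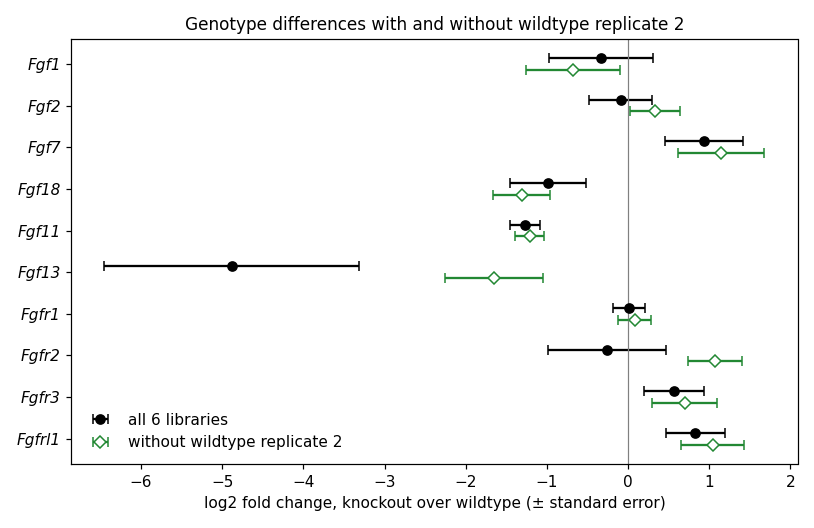
Log2 fold changes of the 10 members, knockout over wildtype, with standard errors, from edgeR with all 6 libraries (filled) and without wildtype replicate 2 (open). *Fgf11* stays near -1.27, *Fgf13* moves from -4.88 to -1.65 and *Fgfr2* from -0.26 to 1.07.

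Among the ligands, *Fgf7* (ENSMUSG00000027208.14, chromosome 2, 126034658 to 126091185) was the most abundant. It had 3165, 3157 and 6109.6 normalized counts in knockout and 926, 2802 and 2787 in wildtype replicates 1 to 3. Each knockout library lay above each wildtype library, but the gap between 2802 and 3157 was small beside the spread within each genotype. Knockout averaged 4144 ± 1702 (SD, n = 3) against 2172 ± 1079 (SD, n = 3), and the log2 difference was 0.93 (standard error 0.48, edgeR adjusted p = 0.510). Without knockout replicate 3, the highest library, it was 0.53, and without wildtype replicate 1, the lowest, it was 0.56. The fibroblast markers *Dcn*, *Col3a1* and *Postn* also lay higher in every knockout library, the only 3 on that list of 10 to do so. *Dcn* had 3832 to 4833 normalized counts against 1861 to 2513 (edgeR adjusted p = 0.0952), while the summed fibroblast markers overlapped. By fold change 7 markers rose in the knockout and 3 fell. *Fn1* fell by a log2 fold change of -0.94, *Col1a1* by -3.35 and *Thy1* by -0.32 (edgeR adjusted p = 0.399, 0.546 and 0.569). Without wildtype replicate 2, *Fn1* was at -0.70, while *Col1a1* and *Thy1* turned to 2.10 and 0.47. The part of fibroblast markers in the *Fgf7* values was not tested.

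*Fgf18* (ENSMUSG00000057967.12, chromosome 11, 33117430 to 33147400) had 70.1, 65.0 and 49.2 normalized counts in knockout and 198, 61.9 and 105 in wildtype replicates 1 to 3. Wildtype replicate 2 lay within the knockout range, and the other wildtype libraries lay above it. Knockout averaged 61.4 ± 10.9 (SD, n = 3) against 122 ± 69.9 (SD, n = 3), and the log2 fold change of -0.99 (standard error 0.47, edgeR adjusted p = 0.475) did not pass the threshold. It was -1.31 without wildtype replicate 2 (adjusted p = 0.117) and -0.45 without wildtype replicate 1, the highest library.

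The endothelial mitogens were low. *Fgf2* (ENSMUSG00000037225.13, chromosome 3, 37348346 to 37410108) had 124, 138 and 150.5 normalized counts in knockout and 78.2, 221 and 140.1 in wildtype replicates 1 to 3. The wildtype libraries spanned the knockout libraries on both sides, and the log2 fold change of -0.09 (standard error 0.39, 95% interval -1.04 to 0.86, edgeR adjusted p = 0.954) turned to 0.33 without wildtype replicate 2. *Nudt6*, on the opposite strand, shares 640 exonic bases with *Fgf2*, and the strand setting of the counting is not given in the sources used here. *Nudt6* itself had 36 to 51.0 normalized counts. *Fgf1* (ENSMUSG00000036585.16, chromosome 18, 38838673 to 38929472) had 22.3, 65.0 and 19.9 normalized counts in knockout and 64.5, 20.6 and 50.3 in wildtype replicates 1 to 3. High and low libraries occurred in both genotypes, with a log2 fold change of -0.33 (standard error 0.64, edgeR adjusted p = 0.885).

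Of the other 11 paracrine ligands, only *Fgf10* had enough reads to be tested, and *Fgf3*, *Fgf4*, *Fgf5*, *Fgf8* and *Fgf20* had 0 reads in all 6 libraries. *Fgf10*, a ligand of the same FGFR2 splice form as FGF7, had 103 ± 41.1 (SD, n = 3) normalized counts in knockout and 607 ± 84.8 (SD, n = 3) in wildtype libraries, and its log2 difference was -2.56 (SE 0.33, edgeR adjusted p = 0.0757). The endocrine *Fgf15*, *Fgf21* and *Fgf23* had at most 9 reads in any library.

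Of the receptors, *Fgfr1* (ENSMUSG00000031565.18, chromosome 8, 25513654 to 25575718), the main FGF receptor of mesenchymal and endothelial cells, had the most reads. It had 11791, 12649 and 9640.5 normalized counts in knockout and 12458, 12489.7 and 8929 in wildtype replicates 1 to 3. The genotypes overlapped almost fully, with replicate 3 the lowest in each. Its log2 fold change was 0.01 (standard error 0.20, edgeR adjusted p = 0.989), and its 95% interval of -0.46 to 0.48 leaves room for a difference of that size in either direction.

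*Fgfr2* (ENSMUSG00000030849.18, chromosome 7, 130162451 to 130266808 in RefSeq) had 2682, 2844 and 5336 normalized counts in knockout and 1603, 9574 and 1826 in wildtype replicates 1 to 3. Wildtype replicate 2 was the highest of all 6 libraries at 5.58 times the mean of the other wildtype libraries, which were the lowest. With all libraries the log2 fold change was -0.26 (standard error 0.73, edgeR adjusted p = 0.927). It turned to 1.07 (standard error 0.33, unadjusted p = 0.0171, adjusted p = 0.153) without wildtype replicate 2. Wildtype replicate 2 also had the highest summed fibroblast markers (14492 CPM) and low summed epithelial markers (4, against 18.7 and 42.5 in the other wildtype libraries). Within these lists markers went both ways in that library. *Col1a1* (27158 normalized counts), *Col1a2* (186111), *Fn1* (102434) and *Thy1* (12403) were the highest of the 6 libraries there. *Dcn* (1861), *Lum* (1155), *Pdgfra* (10076), *Col3a1* (43396) and *Fbln1* (4259) were the lowest, and the epithelial *Krt19* (83.5) was the highest. Mural markers split too, with *Acta2* (16257), *Cspg4* (4405) and *Cnn1* (33.0) highest there and *Pdgfrb* (7785), *Rgs5* (29.9), *Abcc9* (3.09) and *Des* (4.12) lowest. *Esrp1*, a splicing factor that epithelial cells use to make the FGF7-binding form, had 0 reads in wildtype replicate 2 and in knockout replicate 3, the libraries with the most *Fgfr2*, and at most 42 in the others. Its relative *Esrp2* had 23 reads in wildtype replicate 2 against 7 and 5 in the other wildtype libraries, and 15 in knockout replicate 3 against 25 and 36 in the other knockout libraries. The part of these cell markers in the *Fgfr2* level was not tested.

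*Fgfr3* (ENSMUSG00000054252.18, chromosome 5, 33721674 to 33737068), a receptor that limits bone growth and acts in cochlear supporting cells, had 159, 171 and 344 normalized counts in knockout and 120.2, 182 and 155 in wildtype replicates 1 to 3. Knockout replicate 3 was 2.08 times the mean of the other knockout libraries, which lay within the wildtype range. The log2 fold change was 0.56 (standard error 0.37, edgeR adjusted p = 0.621) and 0.11 without knockout replicate 3. *Fgfrl1* (ENSMUSG00000008090.14, chromosome 5, 108692382 to 108706924) had 549, 671 and 1279 normalized counts in knockout and 356, 597 and 454 in wildtype replicates 1 to 3. Again knockout replicate 3 was highest, at 2.10 times the mean of the other knockout libraries, and wildtype replicate 2 lay above the lowest knockout library. The log2 fold change was 0.83 (standard error 0.36, 95% interval -0.05 to 1.71, edgeR adjusted p = 0.444) and 0.37 without knockout replicate 3. *Fgfr4*, the receptor least used outside liver and muscle, had 2 to 80 reads, a log2 fold change of -1.06 and wildtype replicate 2 as its lowest library.

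Knockout replicate 3 thus exceeded both other knockout libraries by over 1.5-fold for 4 of 10 members (*Fgf7*, *Fgfr2*, *Fgfr3* and *Fgfrl1*), where 6.53% of all genes tested did so. Wildtype replicate 2 exceeded both other wildtype libraries by over 1.5-fold for *Fgf2*, *Fgf13* and *Fgfr2*, where 11.4% of all genes did so. It lay below both by over 1.5-fold for *Fgf1* and *Fgf18*, where 15.3% did so.

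**Figure D3:**
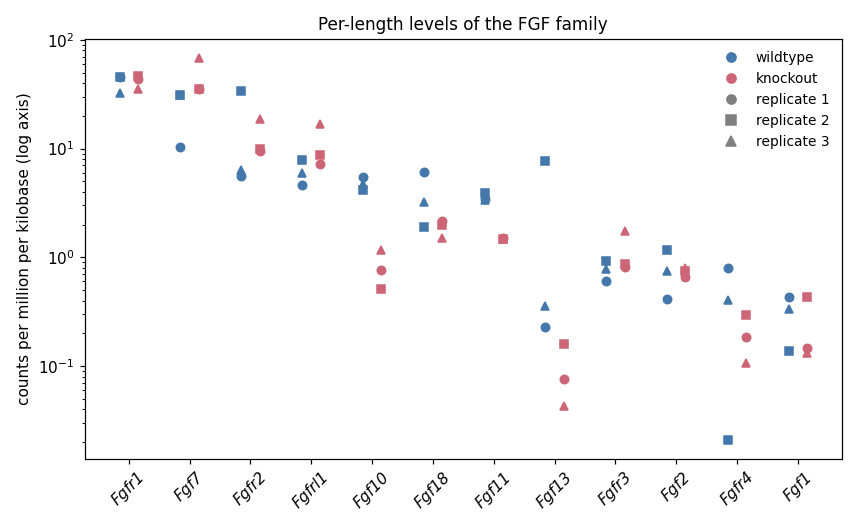
Levels of FGF family genes averaging 10 normalized counts or more, in CPM per kilobase of exon union on a log axis, ordered by the mean over 6 libraries. Colors mark the genotype and shapes the replicate. Levels span from 0.0211 (*Fgfr4*, wildtype replicate 2) to 68.2 (*Fgf7*, knockout replicate 3).

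Levels of different genes were compared per length, as CPM per kilobase of merged exons. *Fgfr1* led with a mean level of 41.6 over the 6 libraries (range 32.8 to 46.5). *Fgf7* followed with 35.3 (10.3 to 68.2), *Fgfr2* with 14 (5.63 to 33.6) and *Fgfrl1* with 8.49 (4.64 to 16.7). Below them came *Fgf18* at 2.80, *Fgf11* at 2.53, *Fgf13* at 1.43, *Fgfr3* at 0.956, *Fgf2* at 0.760 and *Fgf1* at 0.269. Each gene's range of levels overlapped that of its neighbour in this order, so neighbours did not differ beyond their spread over libraries. Some steps held within libraries all the same: *Fgfr2* was above *Fgfrl1* in 6 of 6 libraries, and *Fgfr1* was above *Fgf7* in 5 of 6, the exception being knockout replicate 3. These levels depend on the length chosen. With the longest transcript in place of the merged exons, the mean was 81.5 for *Fgfr1*, 42.9 for *Fgf7* and 32.6 for *Fgfr2*. The *Fgf13* mean rested on wildtype replicate 2, with a level of 7.72 there and at most 0.357 elsewhere.

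**Figure D4:**
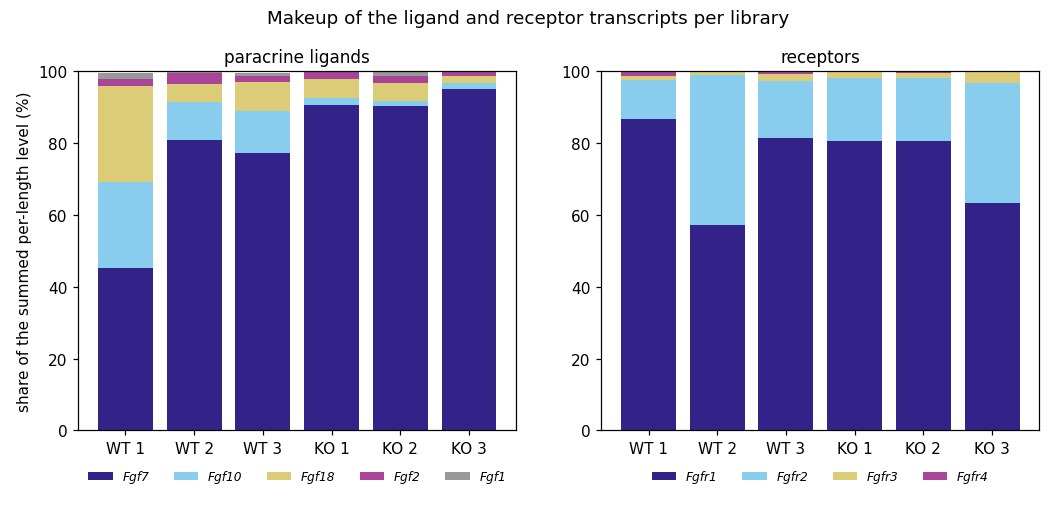
Makeup of the ligand transcripts (left) and receptor transcripts (right) in each library, as percent of the summed per-length level of the paracrine ligands or of *Fgfr1* to *Fgfr4*, with the ligands that did not pass the filter left undrawn. *Fgf7* takes 90.2% to 94.9% in knockout and 45.3% to 80.7% in wildtype libraries, and *Fgfr2* reaches 41.8% in wildtype replicate 2 and 33.5% in knockout replicate 3.

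Within the summed per-length level of paracrine ligands, *Fgf7* made up 90.4%, 90.2% and 94.9% in knockout replicates 1 to 3. In the wildtype it made up 45.3%, 80.7% and 77.1%. The knockout shares were close together and lay above all wildtype shares, averaging 91.9% ± 2.67 (SD, n = 3) against 67.7% ± 19.5 (SD, n = 3). The difference went with the share of *Fgf10*, at 1.31% to 1.97% in knockout and 10.7% to 23.9% in wildtype libraries, and with *Fgf18* in wildtype replicate 1, at 26.6%. *Fgf2* held 1.12% to 3.04% and *Fgf1* 0.184% to 1.88% of the ligand level. Among *Fgfr1* to *Fgfr4*, *Fgfr1* made up 80.6%, 80.6% and 63.2% in knockout and 86.7%, 57.0% and 81.2% in wildtype replicates 1 to 3. The mean shares, 74.8% ± 10.0 (SD, n = 3) and 75.0% ± 15.8 (SD, n = 3), differed by less than the spread between libraries. Each genotype had 1 library in which *Fgfr2* held a larger part, 33.5% in knockout replicate 3 and 41.8% in wildtype replicate 2, against 10.7% to 17.5% in the others. *Fgfr3* held 1.15% to 3.11%.

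The other genes of the pathway were taken from lists by role, 93 of them in the table beyond the members, of which 69 were tested. The adjusted p was under 0.05 for 0 of 69 in edgeR's test, and the unadjusted p for 5 in the lower and 7 in the higher direction (against 5.71% and 6.14% of all genes). DESeq2 gave 2 lower (*Fgf10* and *Flrt3*) and 3 higher (*Shc1*, *Spry1* and *Dusp4*), against 4.65% of all genes in either direction, with adjusted p of 1.69e-10, 0.0134, 0.0385, 0.00188 and 0.00316 in that order. Without wildtype replicate 2 the edgeR adjusted p of *Fgf10* was 0.0252. The median log2 fold change over the 69 genes was 0.01. Of 8 co-receptors and binding proteins, 5 were tested, with a median log2 fold change of -0.61. *Flrt3* and *Flrt1*, of a family of membrane proteins that bind FGF receptors, had 161 ± 12.1 and 153 ± 22.5 normalized counts (SD, n = 3) in knockout. In wildtype libraries they had 283 ± 42.8 and 233 ± 8.82 (SD, n = 3). Their log2 fold changes were -0.81 (edgeR adjusted p = 0.182) and -0.61 (adjusted p = 0.319), and for both every knockout library lay below every wildtype library. The klotho gene *Klb*, co-receptor of the endocrine FGF21, had 0 reads.

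All 11 heparan sulfate proteoglycans were tested, with a median log2 fold change of 0.26. *Sdc3*, a syndecan, and *Agrn*, the basement membrane proteoglycan agrin, had log2 fold changes of 0.51 (edgeR adjusted p = 0.296) and 0.90 (adjusted p = 0.421). *Gpc3*, a glypican named here after its values were seen, had 14643 normalized counts in wildtype replicate 2 against 18.2 to 99.8 in the other 5 libraries, the same library in which *Fgf13* stood out. The *Gpc3* log2 fold change was -6.03 with all 6 libraries and turned to 2.02 without wildtype replicate 2. The 11 genes of heparan sulfate synthesis and editing had a median of -0.03 and 0 with an unadjusted p under 0.05. The sulfatases *Sulf1* and *Sulf2*, which remove sulfates that ligand binding needs, were the most abundant, at 13263 to 18966 and 10841 to 19751 normalized counts over the 6 libraries. Of 17 adaptor and MAP kinase relay genes, *Mapk3*, which encodes ERK1, had a log2 fold change of -0.50 (edgeR adjusted p = 0.294) and the adaptor *Shc1* one of 0.38 (adjusted p = 0.300), with a median of -0.18 over the list.

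Feedback inhibitors and target genes, of which some but not all are transcripts that ERK signalling induces, had positive medians. For 11 tested feedback inhibitors the median was 0.45, with 8 above 0 and 4 without overlap in the higher direction (against 10.4% of all genes). *Spry1*, a Sprouty antagonist, had 478 ± 253 (SD, n = 3) normalized counts in knockout and 115 ± 25.5 (SD, n = 3) in wildtype libraries, and its log2 difference was 2.05 (SE 0.48, edgeR adjusted p = 0.166). *Dusp4*, a nuclear MAP kinase phosphatase, had 537 ± 118 and 253 ± 43.0 (SD, n = 3), and its log2 difference was 1.09 (SE 0.23, edgeR adjusted p = 0.134). For 9 target genes the median was 0.52, and the ETS factor *Etv4* and the AP-1 component *Fosl1* had log2 fold changes of 1.86 (edgeR adjusted p = 0.358) and 1.33 (adjusted p = 0.282). *Ier3*, an immediate early gene, had -1.29 (adjusted p = 0.420). *Egr1* and *Fos*, the target genes with the most reads, had -0.64 and -1.75 (edgeR adjusted p = 0.738 and 0.486). In all, 6 of the 9 target genes were above 0 and 3 below. The target genes summed to 1546 to 2389 CPM in knockout and 1566 to 5003 in wildtype libraries. Of 10 cell cycle markers, edgeR called 0 at an adjusted p under 0.05 and 9 had an unadjusted p under 0.05 in the higher direction (against 6.14% of all genes). DESeq2 put 8 of these markers past the threshold, against 4.65% of all genes in either direction. Their summed level was 245 to 444 CPM in knockout against 76.6 to 119 in wildtype libraries. Their part in the values of the feedback inhibitors and target genes was not tested.

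**Figure D5:**
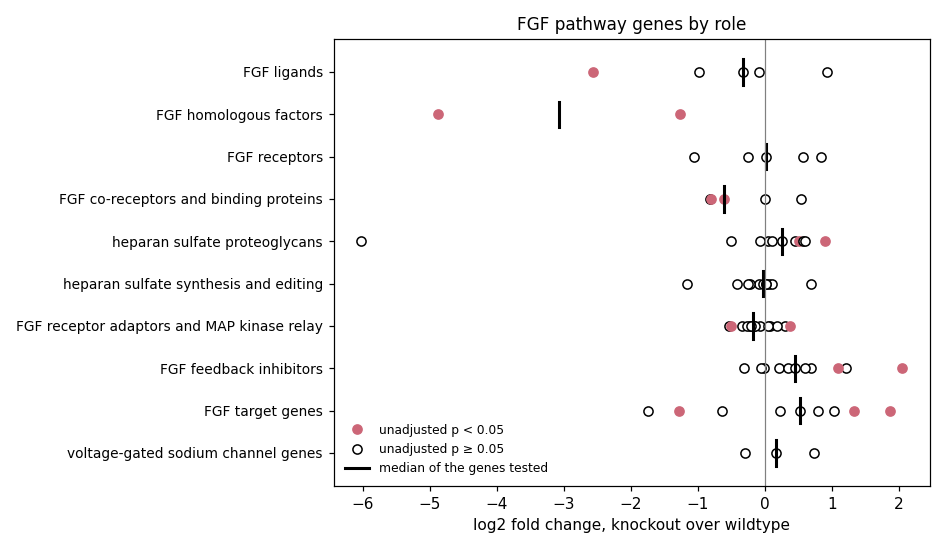
Log2 fold changes, knockout over wildtype, of each tested FGF pathway gene by role, members included, with filled points for an unadjusted p under 0.05 and black bars for list medians. Medians run from -3.08 for the homologous factors (2 genes) to 0.52 for the target genes, and the lowest point, at -6.03, is *Gpc3*. Without wildtype replicate 2 (not drawn), the homologous factor median was -1.43 and *Gpc3* was at 2.02.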

How the data were processed

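Stranded poly(A) libraries of 6 cultures were read for 75 cycles. The authors deposited raw read counts per gene symbol, with mm10 as the reference. The submitters' processing notes name STAR 2.7.7a, HTSeq 0.13.5 and DESeq2 1.26.0, while the annotation, strand setting and test settings are not given in the sources used here. The 5 summary lines, with 22.2% of all reads, were left out of library sizes and tests.

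Genes were filtered with filterByExpr (minimum count 10), which kept 13479 of 24421. Counts were normalized by TMM and compared by genotype alone, all 6 libraries in 1 fit, in edgeR 4.0.16 (R 4.3.3, quasi-likelihood F test). A standard error is the log2 fold change divided by the square root of F. Alternatives used DESeq2 1.42.0, limma 3.58.1, other normalizations and filters, a replicate block, and each library left out. Knockout replicates 1 and 2 were summed in an alternative added after seeing the data. The tests were tried on simulated counts. Per-length levels used merged exons of GENCODE M21 (GRCm38), and promoters came from RefSeq (GRCm38.p6), for 8 of 10 members.

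Members and lists were chosen with earlier results of these data known. Genes beyond the members were named by an unadjusted p under 0.05 within their list, or else by mean count. Markers at or near 0 reads were named for their low counts. Other single markers and *Gpc3* were named after their values were seen. The targeted gene is not reported here.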

Additional observations from a re-analysis of the deposited data

How the results depend on the processing

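Over all genes, the count with an adjusted p under 0.05 was 9 and became 21 both with no filter beyond 1 count and with at least 10 counts in every library, 627 with DESeq2, and 1 with knockout replicates 1 and 2 summed, and leaving out a replicate gave 0 (knockout replicate 3) to 395 (wildtype replicate 2). For the members the count of 0 became 1 with DESeq2 and ranged from 0 to 1 with a replicate left out, the 1 being *Fgf11* without wildtype replicate 2. For the pathway lists the count of 0 became 5 with DESeq2 and ranged from 0 to 1 with a replicate left out. For the marker lists DESeq2 called 2 lower and 10 higher of 59 tested, against 4.65% of all genes in either direction. Of the 10 higher, 8 were cell cycle markers. The edgeR count of 1 over the marker lists became 2 with no filter and 0 with the summed libraries. It ranged from 0 to 11 with a replicate left out, the 11 standing against 2.88% of all genes in that fit. In each range the high end was without wildtype replicate 2, and the cause was not tested.

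Members with log2 fold changes near 0 turned direction. *Fgf2* was 0.05 with limma-voom and -0.40 to 0.33 with a replicate left out, *Fgfr2* was 0.18 with limma-voom and -0.66 to 1.07, *Fgf1* was -1.09 to 0.01, and *Fgfr1* was -0.01 without a filter, -0.05 with the summed libraries and -0.14 to 0.11. None of these had an adjusted p under 0.05 under any setting. *Fgf13* could not be tested with at least 10 counts in every library. Between libraries of the same replicate number, the correlations of deviations from the genotype mean were 0.207, -0.189 and 0.111. With 3 libraries per genotype and wildtype replicate 2 far from the rest, they cannot decide whether the numbers pair the cultures. With the replicate block 2 of all genes and 0 members were past the threshold, and *Fgf2* was 0.03 and *Fgfr2* 0.24. Fewer than 10 reads stood behind most other FGF ligands, so differences in them were not detectable at this depth.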
